A study of Mus musculus with 15 samples.

Results

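Genes of the kinetochore, the kinesin family and the spindle checkpoint were followed in mouse zygotes and 2-cell embryos. They were the 70 of 14392 listed genes whose symbol starts with Cenp (18 genes) or Kif (33 genes) or is among 19 further named genes of the NDC80 complex, the spindle checkpoint, the chromosomal passenger complex, the Aurora A pathway and the shugoshins. Another 10 protein-coding Cenp or Kif symbols of the GENCODE M1 annotation were not among the 14392 listed genes. All 70 had passed the filter that the authors applied before deposit, and 6 of them (Kif5a, Kif6, Kif13b, Kif21a, Kif21b and Kif27) never reached 2 FPKM.

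Embryos came from superovulated C57BL/6 mothers that were either WT or Usp16 fl/fl;Gdf9-Cre, called cKO, all mated with WT males. Gdf9-Cre is active in oocytes from the primordial follicle stage on, so Usp16 is deleted in the oocytes of cKO mothers, while cKO embryos inherit an intact paternal allele. USP16 removes ubiquitin from histone H2A. RNA of 10 pooled embryos per library was read by Smart-seq2, with 2 libraries for each genotype at each of the 2 stages.

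Kinetochores are the protein platforms on centromeres to which spindle microtubules attach. An inner layer on CENP-A chromatin carries the NDC80 complex, which binds the microtubules, while the checkpoint delays anaphase until every kinetochore is attached and the passenger complex, with Aurora B or, in germ cells, Aurora C as its kinase, corrects wrong attachments. Spindle kinesins shape the spindle and complete cytokinesis. The oocyte loads the zygote with RNAs for meiosis, many of which are degraded as the embryonic genome is activated, and the embryo then divides by mitosis.

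Usp16 itself was measured first. Its FPKM was 184 and 187 in WT zygotes, 16.8 and 22.0 in cKO zygotes, 168 and 183 in WT 2-cell embryos, and 168 and 84.8 in cKO 2-cell embryos. The zygote groups did not overlap, with a log2 fold change of -3.21 (SE 0.16, adjusted p = 0.00342). Between the 2-cell groups the log2 fold change was -0.55 (adjusted p = 0.564), and the paternal allele of the cKO embryos is intact. With equal weights for all libraries, the zygote difference did not pass (adjusted p = 0.191).

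FPKM is a level per length of transcript and per number of mapped fragments, so it gives a gene's share of a library and not molecules per embryo. Every value under 1 had been set to a floor of 1. Counts were not used here, so the depth behind each value is unknown, and the error rests on 2 libraries per group. Nothing says whether the 2 libraries of a group came from different mothers, so p-values measure the spread between these libraries. Tests were limma fits on log2(FPKM + 1) with adjustment over all 14392 genes at 0.05, and an exact permutation of 2 libraries against 2 could not go below a p of 0.333.

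The cKO 2-cell libraries stood apart from the rest. Their replicates differed by over 2-fold in 14 of the 70 genes (20%) and in 30.4% of all genes, compared with at most 1 of the 70 genes in each of the other groups. The summed FPKM of replicate 2 was 770989, against 547752 to 593317 in the other libraries. The 70 genes took 0.921% and 0.953% of the summed FPKM in zygotes of WT mothers, 0.982% and 0.971% in those of cKO mothers, 0.664% and 0.713% in WT embryos at the 2-cell stage, and 0.831% and 0.596% in cKO embryos at that stage.

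Markers of the embryo matched the labels. All 10 oocyte and early embryo markers were above the floor in every library, and their most abundant gene was Dppa3, at 2472 to 8774 FPKM. The 4 markers of the 2-cell embryo summed to 5.45 to 8.99 FPKM in zygotes, to 421 and 626 in WT 2-cell embryos and to 162 and 167 in cKO 2-cell embryos. Of 12 cumulus and granulosa markers, Foxl2 and Tnfaip6 were listed, both at the floor in all 4 zygote libraries and at most at 7.45 FPKM elsewhere. Of 6 sperm and spermatid markers, 4 were listed, and Prm2 led them in zygotes at 13.5 to 20.1 FPKM.

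By mean FPKM over the 8 libraries, the most abundant of the 70 genes were Birc5 (782 FPKM), Mad2l1 (454), Aurkc (408), Cdca8 (271), Spc25 (263) and Cenpn (262). The order differed between the stages. Cenph had a mean of 383 in WT zygotes, and Cenpa had 328 in WT 2-cell embryos, where Cenpn had 177. Birc5, which encodes survivin of the passenger complex, led in each library. In all, 46 genes had a mean over 10 FPKM and 12 had a mean over 100. The 6 genes with the lowest means were transport kinesins and the kinesin-2 adaptor Kifap3.

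**Figure D1:**
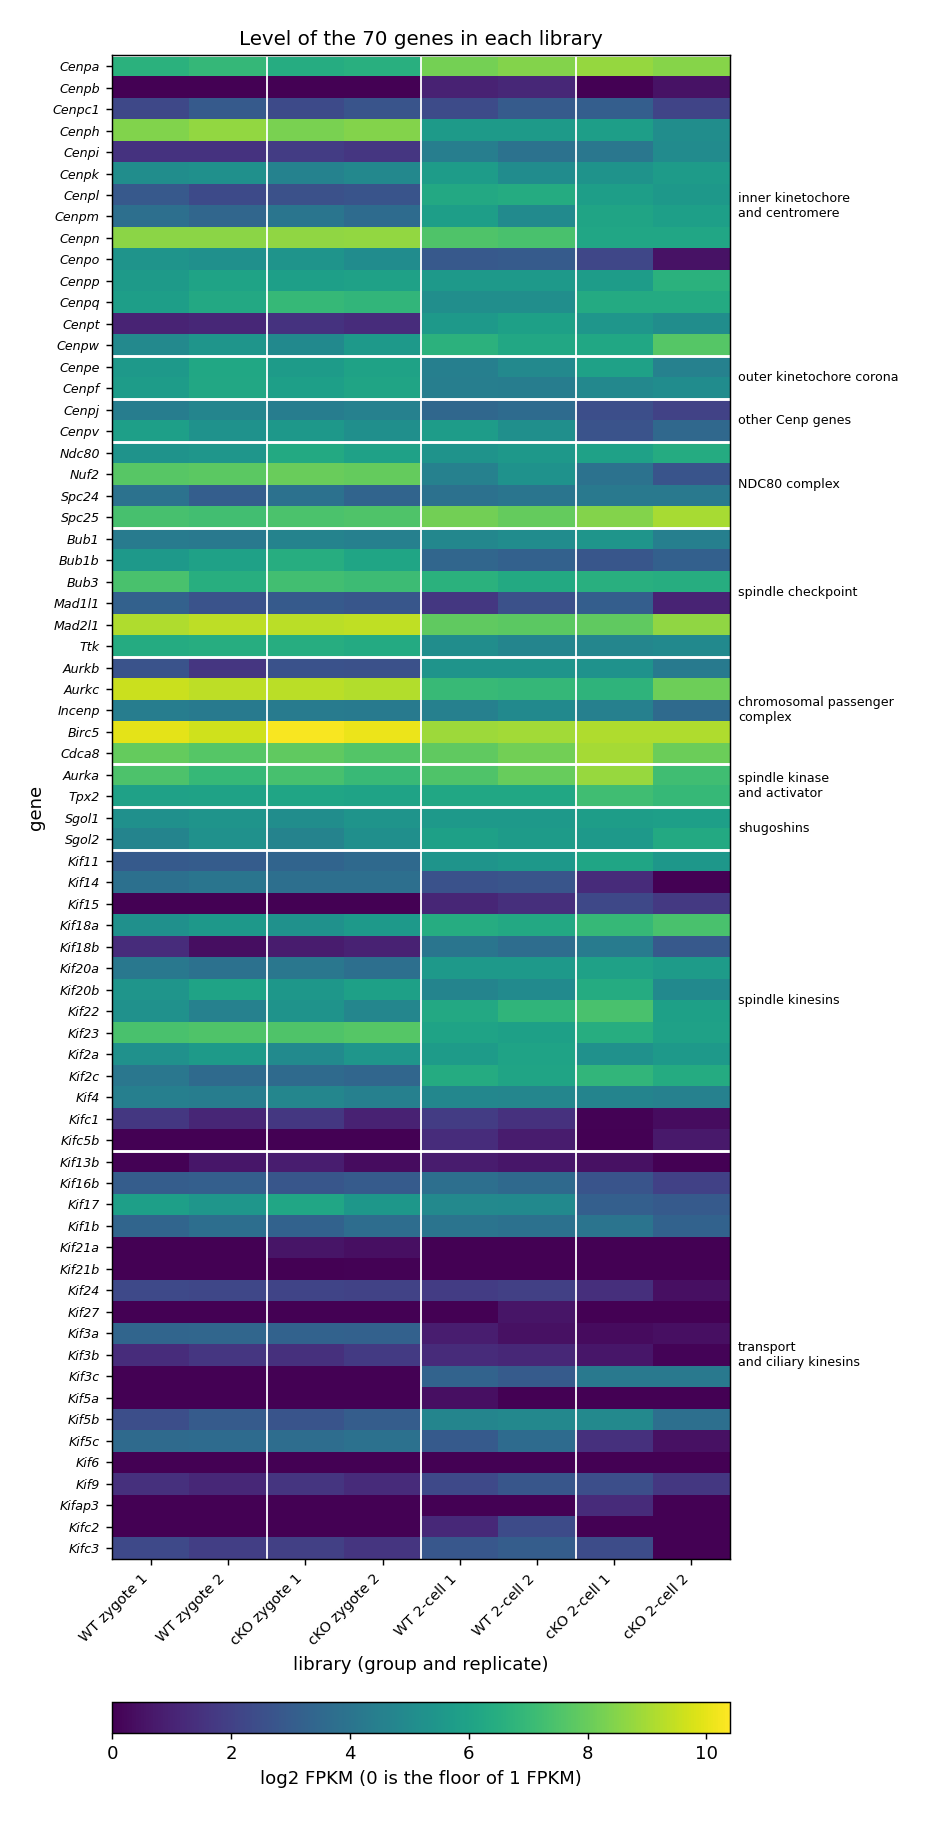
Log2 FPKM of the 70 genes (rows, grouped by role) in the 8 libraries (columns), where 0 is the floor of 1 FPKM. Birc5 is the brightest row, and Aurkc, Cenph, Nuf2 and Kif3a darken from zygotes to 2-cell embryos while Cenpt, Cenpl, Aurkb and Kif3c brighten.

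Between WT zygotes and WT 2-cell embryos, kinetochore and spindle transcripts changed in both directions. Of the 70 genes, 20 rose (28.6%) and 15 fell (21.4%) by limma, against 36.6% of all genes that rose and 14.9% that fell. Both directions were seen among the 14 inner kinetochore genes, with 6 risers and 4 fallers, and among the 14 spindle kinesins, with 8 and 2. The checkpoint genes had 0 risers and 3 fallers of 6. The risers include Cenpb, Kif15, Kifc5b, Kif3c and Kifc2, which were at the floor in every zygote library and so could not fall. The share of all genes that rose carries the same limit. Of all genes, 4423 and 4747 were at the floor in the WT zygote libraries, and 1642 and 1716 in the WT 2-cell libraries. Fewer embryos of a kind in a pool and less RNA of a gene per embryo cannot be told apart in such libraries.

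The limits of this comparison were scaling and single libraries. As deposited, the median of 7142 genes above 1 FPKM in all libraries shifted by 0.32 on the log2 scale from WT zygotes to WT 2-cell embryos, and quantile normalization gave 14 risers and 23 fallers among the 70 genes (26.1% and 30.1% of all genes). Without WT 2-cell replicate 1, 13 rose and 10 fell (30% and 7.75% of all genes), and without replicate 2 it was 16 and 11 (30.3% and 7.84%).

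The Aurora kinases of the passenger complex moved in opposite directions. Aurkc, the germ cell member of the family (mm9 chr7:6948154-6955656, plus strand), was at 759 and 651 FPKM in WT zygotes and at 130.2 and 122 in WT 2-cell embryos. Aurkb, the mitotic member (mm9 chr11:68859149-68865166, plus strand), was at 6.36 and 3.09 in WT zygotes and at 42.2 and 41.9 in WT 2-cell embryos. The stages did not overlap for either gene. Aurkc fell by 2.47 on the log2 scale (SE 0.28, adjusted p = 0.000675) and Aurkb rose by 2.97 (SE 0.46, adjusted p = 0.00241).

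As a share of the summed FPKM of both kinases, Aurkb made up 0.831% and 0.473% in WT zygotes, 0.971% and 1.03% in cKO zygotes, and 24.5% and 25.6% in WT 2-cell embryos. In cKO 2-cell embryos the share was 26.3% in replicate 1 and 6.53% in replicate 2. The first cKO value lay by the WT values and the second far below them, and Aurkc was still the more abundant kinase in every library. Aurkc alone was at 634 and 583 FPKM in cKO zygotes and at 109 and 279 in cKO 2-cell embryos, and Aurkb at 6.22 and 6.06 and then at 38.9 and 19.5.

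The other passenger subunits moved less. Birc5 was at 992 and 811 FPKM in WT zygotes and at 475 and 495 in WT 2-cell embryos, with no overlap, and fell by 0.89 (adjusted p = 0.0307). This call was lost without WT zygote replicate 1 and without either WT 2-cell library, with adjusted p up to 0.164. Incenp, the scaffold of the complex, and Cdca8, which encodes borealin, had log2 fold changes of 0.37 and 0.22 that did not pass (adjusted p = 0.221 and 0.565).

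Subunits of the NDC80 complex diverged. This complex has a microtubule-binding arm of NDC80 and NUF2 and an anchoring arm of SPC24 and SPC25. Nuf2 was at 205 and 219 FPKM in WT zygotes, 257 and 243 in cKO zygotes, 23.8 and 39.6 in WT 2-cell embryos, and 15.1 and 6.46 in cKO 2-cell embryos. Each 2-cell library was below each zygote library, and the fall in WT was 2.75 on the log2 scale (SE 0.28, adjusted p = 0.000408).

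Spc25 went the other way, from 165 and 151 FPKM in WT zygotes to 295 and 248 in WT 2-cell embryos, and rose by 0.77 (SE 0.21, adjusted p = 0.0206). The groups did not overlap, but the call was lost after median-ratio scaling and without WT 2-cell replicate 1 (adjusted p up to 0.106). The ratio of Spc25 to Nuf2 was 0.804 and 0.688 in WT zygotes and 12.4 and 6.26 in WT 2-cell embryos. In cKO embryos it was 0.679 and 0.758 in zygotes and 23.4 and 82.4 at the 2-cell stage. Ndc80 (40.2 to 85.4 FPKM over all libraries) and Spc24 (8.51 to 18.7) had log2 fold changes of 0.06 and 0.42 in WT that did not pass (adjusted p = 0.894 and 0.521).

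In the inner kinetochore, Cenpt rose and Cenph fell the most among the Cenp genes in WT. Cenpt, a histone-fold protein that recruits NDC80 (mm9 chr8:108368578-108375908, minus strand), was at 2.05 and 2.21 FPKM in WT zygotes, 2.90 and 2.52 in cKO zygotes, 49.1 and 59.5 in WT 2-cell embryos, and 44.8 and 34.6 in cKO 2-cell embryos. The stages were far apart in both genotypes, and the WT log2 fold change was 4.14 (SE 0.21, adjusted p = 5.78e-05). Cenph, a subunit of the constitutive centromere network (mm9 chr13:101529629-101545854, minus strand), was at 346 and 419 in WT zygotes, 318 and 350.0 in cKO zygotes, 50.7 and 50.3 in WT 2-cell embryos, and 57.4 and 34.5 in cKO 2-cell embryos. It fell by 2.89 in WT (SE 0.24, adjusted p = 0.000205), with no overlap of the stages.

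The 2 genes were far apart in zygotes and close in 2-cell embryos. The ratio of Cenph to Cenpt was 169 and 190 in WT zygotes, 110 and 139 in cKO zygotes, 1.03 and 0.845 in WT 2-cell embryos, and 1.28 and 0.997 in cKO 2-cell embryos. Ratios of FPKM between genes are per length and carry any bias that the library method has between transcripts.

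Of the other inner kinetochore genes, Cenpl, whose product pairs with CENP-N, went from 7.48 and 5.01 FPKM in WT zygotes to 78.04 and 83.7 in WT 2-cell embryos (log2 fold change 3.52, adjusted p = 0.000212). Cenpn, which binds CENP-A nucleosomes, went from 386 and 388 to 184 and 169 (log2 fold change -1.13, SE 0.17, adjusted p = 0.00192), so these partners moved in opposite directions. Cenpa, the histone H3 variant of centromeres, went from 100.9 and 123 to 303 and 353 (log2 fold change 1.55, SE 0.24, adjusted p = 0.00221). In each of these genes the WT stages did not overlap.

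The remaining risers of the inner kinetochore were Cenpi and Cenpm, by 2.31 and 1.70 on the log2 scale, and Cenpb, which binds a motif in centromeric repeats, was at the floor in all zygotes and at least 2.09-fold higher in WT 2-cell embryos. Being listed only through 2-cell values, Cenpb could not fall. The call of Cenpm was lost without WT 2-cell replicate 1 (adjusted p = 0.122) and that of Cenpb with quantile normalization (adjusted p = 0.203). The remaining fallers were Cenpo and Cenpq, by 2.21 and 0.89, and the call of Cenpq was lost in 6 of 14 alternatives, without either WT 2-cell library among them (adjusted p up to 0.19). Cenpo shares 19% of its exon bases with the opposite-strand gene Adcy3, and Smart-seq2 reads carry no strand. The summed FPKM of the 14 genes was 1077 and 1220 in WT zygotes and 998 and 972 in WT 2-cell embryos.

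**Figure D2:**
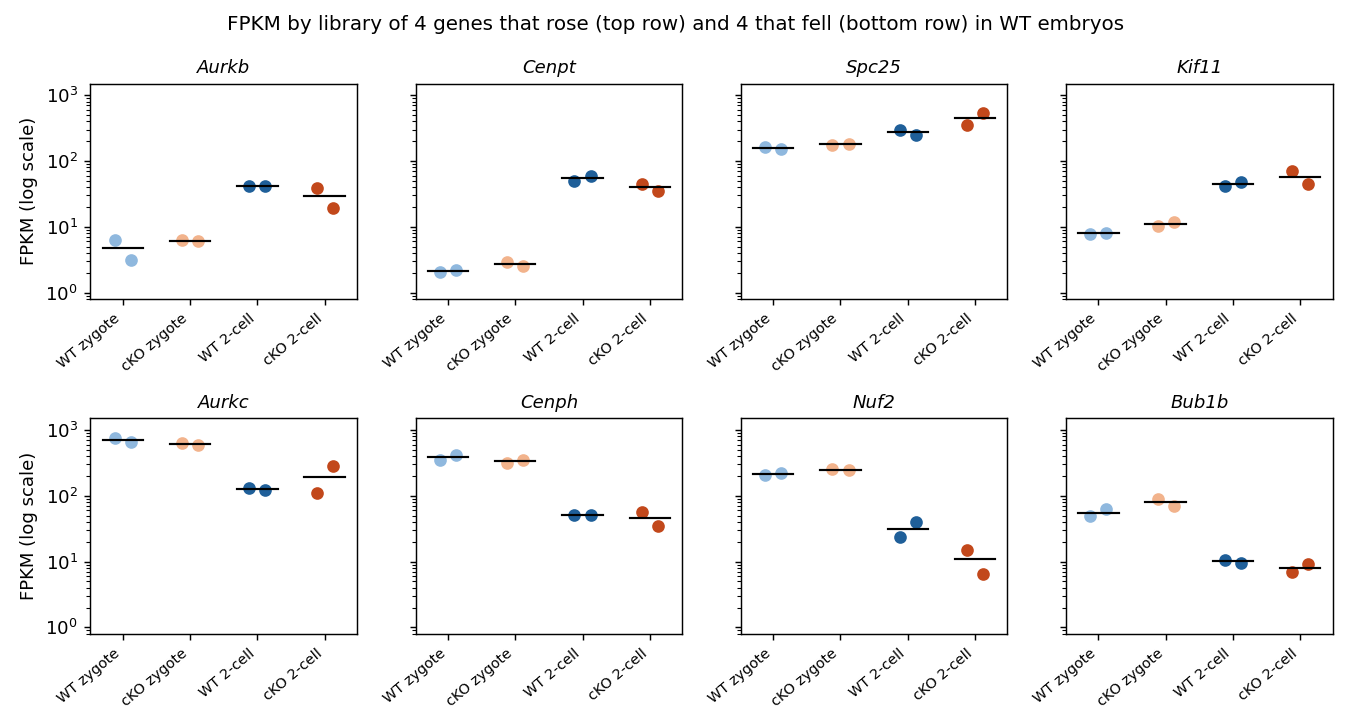
FPKM on a log scale in each library (points) with the mean of the 2 libraries (bars) for Aurkb, Cenpt, Spc25 and Kif11 (top row) and Aurkc, Cenph, Nuf2 and Bub1b (bottom row) in the 4 groups. The top genes are higher and the bottom genes lower in 2-cell embryos than in zygotes of both genotypes, and Nuf2 falls from 205 and 219 to 23.8 and 39.6 in WT.

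Checkpoint genes that changed all fell. Bub1b, which encodes BUBR1 of the mitotic checkpoint complex, was at 49.3 and 61.8 FPKM in WT zygotes, 88.8 and 70.2 in cKO zygotes, 10.7 and 9.33 in WT 2-cell embryos, and 6.96 and 9.05 in cKO 2-cell embryos, and fell by 2.35 in WT (SE 0.31, adjusted p = 0.00121). Mad2l1, which encodes MAD2, the inhibitor of the anaphase activator CDC20, went from 568 and 660.1 to 234 and 220.3 in WT and fell by 1.43 (SE 0.24, adjusted p = 0.00346). Ttk, which encodes the kinase MPS1 that starts checkpoint signalling, went from 83.6 and 89.6 to 34.7 and 26.4 and fell by 1.49 (SE 0.20, adjusted p = 0.00124). None of these 3 genes had overlapping stages in WT, and each kept its call in all 14 alternatives run.

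The kinase gene Bub1 had a log2 fold change of 0.63 (adjusted p = 0.062), and Bub3 and Mad1l1, which carry BUB1 and MAD2 to kinetochores, had -0.50 and -0.70 (adjusted p = 0.413 and 0.22). The summed FPKM of the 6 checkpoint genes was 916 ± 18.3 in WT zygotes and 392 ± 24.5 in WT 2-cell embryos (mean ± SD, n = 2). Mad2l1 made up most of both sums. In the corona, the outermost layer, Cenpf fell by 1.51 (adjusted p = 0.00736), a call lost without either WT 2-cell library (adjusted p up to 0.0781), and the kinetochore kinesin gene Cenpe had -1.17 (adjusted p = 0.0621).

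Aurora A, its activator and the shugoshins had no call between the stages in WT, and 1 centriole gene fell. Aurka, the spindle pole kinase gene, was at 125 to 249 FPKM and Tpx2, its activator, at 61.4 to 73.6 in the 4 WT libraries, with log2 fold changes of 0.53 and 0.22 that did not pass (adjusted p = 0.352 and 0.303). Sgol1 and Sgol2, which protect centromeric cohesin, had 0.28 and 0.81 (adjusted p = 0.416 and 0.189), and Sgol2 shares 49.7% of its exon bases with the opposite-strand gene Kctd18. Cenpj, needed for centriole growth, fell by 0.95 (adjusted p = 0.0212), a call that was lost without either WT 2-cell library.

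Among the 14 spindle kinesins, 8 rose, 2 fell and 4 did not pass. Kif11, the motor that pushes spindle poles apart, was at 7.74 and 8.15 FPKM in WT zygotes, 10.2 and 11.8 in cKO zygotes, 41.6 and 47.3 in WT 2-cell embryos, and 69.3 and 45.4 in cKO 2-cell embryos, and rose by 2.34 in WT (SE 0.22, adjusted p = 0.000309). Kif2c, a depolymerase of microtubule ends at centromeres, went from 17.3 and 12.04 to 85.1 and 67.1 in WT and rose by 2.31 (SE 0.31, adjusted p = 0.00133). Kif18b, which shortens astral microtubules, went from 2.52 and 1.31 to 16.4 and 13.2 and rose by 2.47 (adjusted p = 0.00293), a call lost without WT 2-cell replicate 1 (adjusted p = 0.0553). The stages did not overlap for any of these 3 genes. Kif18a rose by 0.95 (adjusted p = 0.0338), a call lost in 6 of 14 alternatives. Kifc5b was at the floor in every zygote library, so it was listed only through 2-cell values and could not fall. It rose by 0.62 (adjusted p = 0.00414), a call lost in 2 of 13 alternatives. Reads may have been split between Kifc5b and the near-identical Kifc1.

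The fallers were cytokinesis motors. Kif23, the motor of centralspindlin, went from 172 and 187 FPKM to 65.7 and 59.6 in WT and fell by 1.50 (SE 0.19, adjusted p = 0.00109), and Kif14, a midbody motor, went from 14.4 and 16.3 to 6.08 and 6.71 and fell by 1.14 (adjusted p = 0.00671, and 0.0541 without WT 2-cell replicate 1). Kif20a, which takes the passenger complex to the midzone, rose by 1.53 (adjusted p = 0.00453), a call lost without either WT 2-cell library (adjusted p up to 0.0546). It shares 32.3% of its exon bases with the opposite-strand gene Cdc23. The WT stages did not overlap for any of these 3 genes.

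Among the 19 transport and ciliary kinesins, 4 rose, 1 fell and 14 did not pass. Kif3a and Kif3c, subunits of kinesin-2 motors, moved in opposite directions. Kif3a was at 10.46 and 10.7 FPKM in WT zygotes and at 1.77 and 1.36 in WT 2-cell embryos, and fell by 2.17 (SE 0.17, adjusted p = 0.000173). Kif3c was at the floor in all 4 zygote libraries and at 9.88 and 7.90 in WT 2-cell embryos, so its level was at least 8.89-fold higher (adjusted p = 0.000156). It shares 17.1% of its exon bases with the opposite-strand gene 1110002L01Rik. The other risers were Kif5b, the ubiquitous kinesin-1 heavy chain, Kif9, a ciliary motor, and Kifc2. Kif5b rose by 1.89 and Kif9 by 0.98, and both calls were lost without either WT 2-cell library (adjusted p up to 0.0778 for Kif5b). The call of Kif9 was also lost without WT zygote replicate 2 and with quantile normalization (adjusted p = 0.819). Kifc2, at the floor in all zygotes, was at 2.31 and 5.21 in WT 2-cell embryos, so by the means at least 3.76-fold higher. This call was lost with quantile normalization and with the 4 WT libraries alone (adjusted p up to 0.0519). Its log2 fold change was 1.63 without WT 2-cell replicate 1 and 0.73 without replicate 2. No other group had Kifc2 above the floor, so its rise followed from its being listed. Cenpb, Kif3c, Kif15 and Kifc5b, also at the floor in every zygote library, were listed only through 2-cell values.

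By a 3-fold rule on the ratio of group means, without a test, 12 of the 70 genes were higher and 6 lower in WT 2-cell embryos, against 26.0% and 8.78% of all genes. The 6 lower genes were Aurkc, Bub1b, Cenph, Cenpo, Kif3a and Nuf2. Of the 35 genes that limma called, none changed sign in any of the alternatives run.

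For genes that moved together, the 250 bases before each start site were read for letters known from promoters of genes expressed in G2 and M phases. Both strands were searched, in RefSeq promoters on GRCm38.p6, for the cell cycle homology region (CHR), TTTGAA, and for the CCAAT box, CCAAT. Promoters were found for 59 of the 70 genes, with 67 start sites. The CHR letters stood in 5 of 17 promoters of risers (29.4%), 2 of 15 of fallers (13.3%), 11 of 67 of all the genes (16.4%) and 16.0% of 32851 promoters of all genes. The CCAAT letters stood in 47.1% of the risers' promoters, 53.3% of the fallers' and 53.7% of all 67, against 33.8% of all promoters. The letters of both motifs overlapped in 1 promoter, that of Cenpw.

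The CHR windows of all 5 risers and both fallers of the WT stage comparison that held one are shown, the match nearest to the start site for each, 5′ to 3′ on the gene's strand, with the CHR letters in capitals. They end at most 20 bases after the motif and never pass the start site.
Cenpl (riser; GRCm38.p6 chr1:161070585-161070630, plus strand): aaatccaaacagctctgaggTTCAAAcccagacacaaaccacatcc
Kif11 (riser; chr19:37376343-37376381, plus strand): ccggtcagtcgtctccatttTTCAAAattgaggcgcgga
Kif15 (riser; chr9:122951042-122951080, plus strand): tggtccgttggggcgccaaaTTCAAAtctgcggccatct
Kif22 (riser; chr7:127042421-127042457, minus strand): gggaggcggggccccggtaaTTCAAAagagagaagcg
Kif2c (riser; chr4:117178850-117178895, minus strand): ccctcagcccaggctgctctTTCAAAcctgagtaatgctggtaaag
Cenpn (faller; chr8:116921711-116921739, plus strand): cccgagcggccattggcggcTTCAAAagc
Kif14 (faller; chr1:136467600-136467645, plus strand): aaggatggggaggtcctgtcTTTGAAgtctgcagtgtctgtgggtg
In the spindle kinesin genes Kif11, Kif15 and Kif22 the letters stood 13, 13 and 11 bases before the start site, in the same orientation, and in Kif2c and Cenpl 97 and 156 bases before it. Kif15 held a second match 228 bases before the start site, in the other orientation, and Kif22 a second match 209 bases before it. In Cenpn they stood 3 bases and in Kif14 222 bases before the start site. Kif15, a motor that helps Kif11 hold poles apart, rose from the floor in both WT zygote libraries to 2.17 and 2.67 FPKM (adjusted p = 0.00192, and 0.109 with quantile normalization). It was at the floor in every zygote library and listed only through 2-cell values, so it could not fall. Kif22, a motor on chromosome arms, rose from 38.2 and 24.0 to 78.3 and 112 (adjusted p = 0.0496). The call of Kif22 was lost in 8 of 14 alternatives, without WT zygote replicate 2 and without either WT 2-cell library among them. Matches of letters are descriptions and show no binding.

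In cKO embryos, most of these genes moved in the same direction. Of the 70 genes, 14 rose (20%) and 15 fell (21.4%) between cKO zygotes and cKO 2-cell embryos, against 20.7% and 18.2% of all genes. The values compared are those of the cKO libraries alone, but the weights and the spread came from the model of all 8 libraries, and a fit of the 4 cKO libraries alone gave 10 risers and 11 fallers (14.4% and 12% of all genes). Of the 20 genes that rose in WT, 19 had the same sign in cKO, 17 had no overlap of the stages and 13 passed the test there (95%, 85% and 65%), where 83.9%, 68.5% and 51.7% of the 5269 genes that rose in WT did. Of the 15 that fell in WT, all 15 had the same sign and no overlap of the stages, and 11 passed (73.3%), where 98%, 94.7% and 78% of the 2141 genes that fell did. The exception among risers was Kifc2, a minus-end kinesin, which stayed at the floor in all 4 cKO libraries. It was listed only through WT 2-cell embryos, so nothing is concluded from this contrast. Among the 19 were Cenpb, Kif3c, Kif15 and Kifc5b, at the floor in every zygote library. In cKO they could only rise or stay at the floor, so their sign adds nothing to the agreement.

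Among the fallers in cKO, Nuf2 had a log2 fold change of -4.52 (SE 0.41, adjusted p = 0.000863), Cenpo -3.39, Bub1b -3.16, Cenph -2.88 and Cenpn -2.52 (SE 0.25, adjusted p = 0.00101). Cenpt (3.45), Kif2c (2.99) and Cenpl (2.87) were among the risers in cKO, the last 2 of them lost without cKO 2-cell replicate 1 (adjusted p = 0.0575 and 0.053), while Aurkb had a log2 fold change of 2.00 (SE 0.69, adjusted p = 0.0622). Tpx2 passed in cKO only, with 1.00 (adjusted p = 0.0214), and so did the fallers Cenpv, Kif5c, Kif17 and Kif24, but the difference between genotypes in the stage change passed for none of them. Each of these 5 calls was lost without cKO 2-cell replicate 2, and those of Tpx2, Cenpv and Kif17 also without replicate 1. Without cKO 2-cell replicate 1 the counts were 6 risers and 10 fallers (16.1% and 9.14% of all genes), and without replicate 2 they were 9 and 8 (15.8% and 7.58%).

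**Figure D3:**
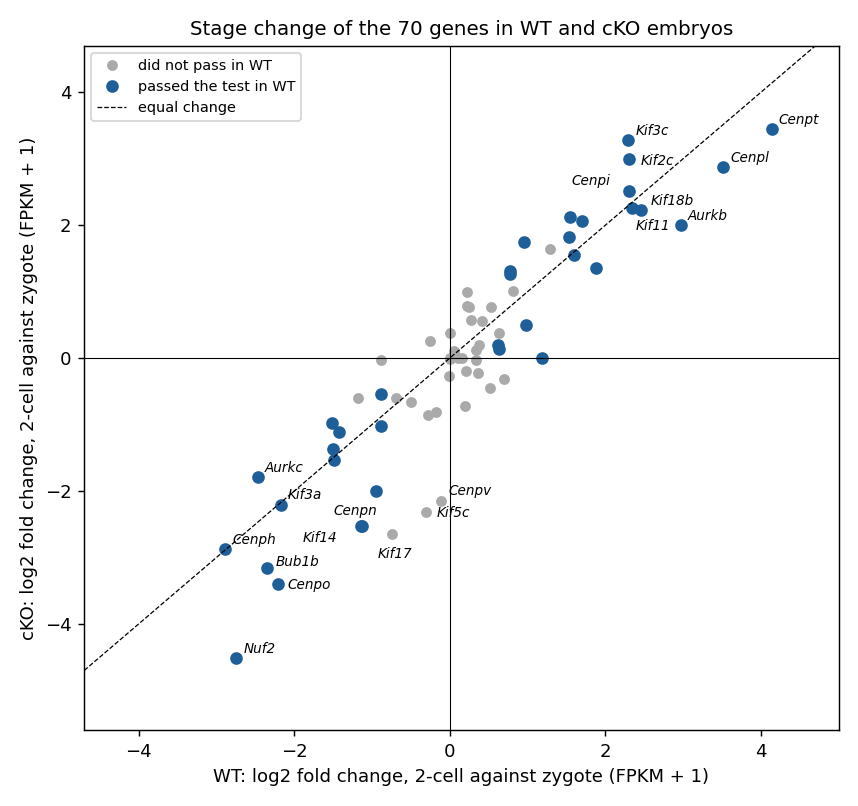
Log2 fold change from zygote to 2-cell embryo on the FPKM + 1 scale in WT (x axis) and cKO (y axis) for the 70 genes, where blue points passed the test in WT and the dashed line marks equal change. Most blue points lie in the lower left or upper right part, and Nuf2 (-2.75 in WT, -4.52 in cKO) and Kif5c (-0.30, -2.32) lie below the line.

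In zygotes, none of the 70 genes passed the test between genotypes. None of them passed limma at 0.05, against 28 of all genes (0.195%), and none passed 3-fold, against 0.153% of all genes. At an unadjusted p under 0.05, 6 were higher and 1 lower in cKO, of 1057 and 508 of all genes. The libraries did not overlap with cKO higher for 15 genes, where 15.8% of all genes did so, and with cKO lower for 7, where 10.2% did.

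The lowest adjusted p was that of Kif21a, 0.0978, at levels of 1.03 and 1 FPKM in WT and 1.497 and 1.33 in cKO. Among more abundant genes, Cenpq, another subunit of the centromere network, was at 56.4 and 78.4 FPKM in WT zygotes and at 124 and 115 in cKO zygotes (log2 fold change 0.84, SE 0.15, adjusted p = 0.13). Ndc80 was at 40.2 and 43.6 in WT zygotes and at 79.0 and 62.5 in cKO zygotes (log2 fold change 0.73, SE 0.15, adjusted p = 0.169). In both genes each cKO library was above each WT library, also at the 2-cell stage, where Cenpq was at 35.3 and 35.7 in WT and 81.9 and 82.5 in cKO, and Ndc80 at 40.6 and 47.0 in WT and 62.5 and 85.4 in cKO. The fit without cKO zygote replicate 2 takes its spread from the other groups. There the log2 fold change in zygotes was 0.31 for Kif21a, which is near the floor, and 0.90 for Ndc80.

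At the 2-cell stage, no gene of the 70 passed limma in cKO against WT, where 974 of all genes did (6.77%). In a limma fit of the 4 libraries of this stage alone, 0 of all genes passed (with an unadjusted p under 0.05, 849 were higher and 3264 lower, among them 5 and 11 of the 70), so the 974 calls rest on a spread estimated with the zygote libraries. At an unadjusted p under 0.05, 4 were higher and 9 lower in cKO, of 690 and 2960 of all genes. By the 3-fold rule, 5 genes were lower in cKO and 0 higher, against 13.5% and 2.84% of all genes. Without cKO 2-cell replicate 1, 9 genes were past 3-fold lower, where 19.7% of all genes were. The libraries did not overlap for 24 genes with cKO lower and 15 with cKO higher, where 43.4% and 14.0% of all genes did so.

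The call depended on how the spread was modelled. With a library left out, its group has no replicate, and the spread comes from the other groups. With equal weights for all libraries, in place of weights that follow the spread of each group, 15 of the 70 genes passed, 4 higher and 11 lower, where 30.7% of all genes passed. Without WT 2-cell replicate 1, 5 genes passed, where 12.4% of all genes did. Without WT 2-cell replicate 2 it was 3 (12.6% of all genes), and without cKO 2-cell replicate 2 it was 2 (4.14%).

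The 5 genes past 3-fold were named after their values were seen. Cenpv, a microtubule-associated protein (mm9 chr11:62338448-62352763, minus strand), was at 53.4 and 36.4 FPKM in WT 2-cell embryos and at 6.31 and 11.5 in cKO 2-cell embryos, and was 5.03-fold lower in cKO (log2 fold change -2.23, SE 0.72, adjusted p = 0.12). In zygotes it was at 58.2 and 39.1 in WT and 47.1 and 36.4 in cKO, so only the cKO 2-cell libraries were low. Kif5c, a kinesin-1 heavy chain known from neurons (mm9 chr2:49474818-49630298, plus strand), was at 7.64 and 12.3 in WT and 2.73 and 1.37 in cKO 2-cell embryos, and was 4.86-fold lower (log2 fold change -1.85, SE 0.45, adjusted p = 0.0652). Its zygote values were 12.1 and 12.4 in WT and 13.03 and 14.6 in cKO, again with the cKO 2-cell libraries alone at the bottom.

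Kif17, another kinesin known from neurons, was at 29.8 and 30.4 FPKM in WT and at 8.83 and 7.68 in cKO 2-cell embryos, and was 3.65-fold lower (adjusted p = 0.23). Kif14 was at 6.08 and 6.71 in WT and at 2.42 and the floor in cKO, so at least 3.74-fold lower (adjusted p = 0.0756). Kifc2 was at 2.31 and 5.21 in WT and at the floor in both cKO libraries, so at least 3.76-fold lower (adjusted p = 0.107). Kifc2 was listed only through WT 2-cell embryos, since it was at the floor elsewhere, so a lower cKO value followed from its being listed. In none of the 5 genes did the groups overlap. Just outside the threshold lay Nuf2, 2.94-fold lower, and the minus-end spindle motor gene Kifc1, 2.75-fold lower, which has a near-identical copy in Kifc5b between which reads may have been split.

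Cenpn had the lowest adjusted p at this stage. It was at 184 and 169 FPKM in WT and at 70.5 and 71.7 in cKO, without overlap, with a log2 fold change of -1.30 (SE 0.28, adjusted p = 0.0514). At the other end, Cenpq had 1.19 (SE 0.48, adjusted p = 0.192), Kif3c 0.98 (SE 0.30, adjusted p = 0.111) and Tpx2 0.88 (SE 0.29, adjusted p = 0.124). Tpx2 was at 73.6 and 73.5 FPKM in WT and 149 and 125 in cKO, and Kif3c at 9.88 and 7.90 in WT and 18.5 and 18.4 in cKO, so each cKO library was above each WT library.

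For the 58 genes that exceeded the floor in the 4 libraries, the log2 ratio of the cKO mean to the WT mean had a median of 0.15, with 33 positive and 25 negative, and for the 9086 such genes of the whole table it was -0.31. This leaves out genes that reached the floor in cKO, Kif14 and Kifc2 among them, and without the filter the medians were 0.00 for the 70 genes and -0.38 for all genes. The sign of the median of 0.15 depended on the scaling and on 1 library, since it was -0.08 after scaling by summed FPKM and -0.15 without cKO 2-cell replicate 1 (all genes -0.53 and -0.52). By role, the summed FPKM was 552 ± 14.9 in WT and 699 ± 152 in cKO for spindle kinesins, 392 ± 24.5 and 485 ± 107 for the checkpoint, 138 ± 5.65 and 89.8 ± 26.6 for transport kinesins (mean ± SD, n = 2 each). In FPKM as deposited, without further scaling, the transport kinesins were the only group of over 2 genes with a lower sum in cKO. Kif17 was the largest part of that difference.

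Among the 10 oocyte markers, Dppa3 and most of the others differed in opposite directions at the 2-cell stage. Their summed FPKM was 4059 and 3668 in WT and 6469 and 9547 in cKO, of which Dppa3 made up 2958 and 2472 in WT and 5888 and 8774 in cKO. The other 9 markers summed to 1101 and 1196 in WT and to 581 and 772 in cKO. Of these 9, Zp1, Zp2, Bmp15, Nlrp5 and Zar1 were lower in cKO without overlap of the groups, Zp3 was higher without overlap, and the groups overlapped for 3. The part of these maternal RNAs in the values of the 70 genes was not tested.

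**Figure D4:**
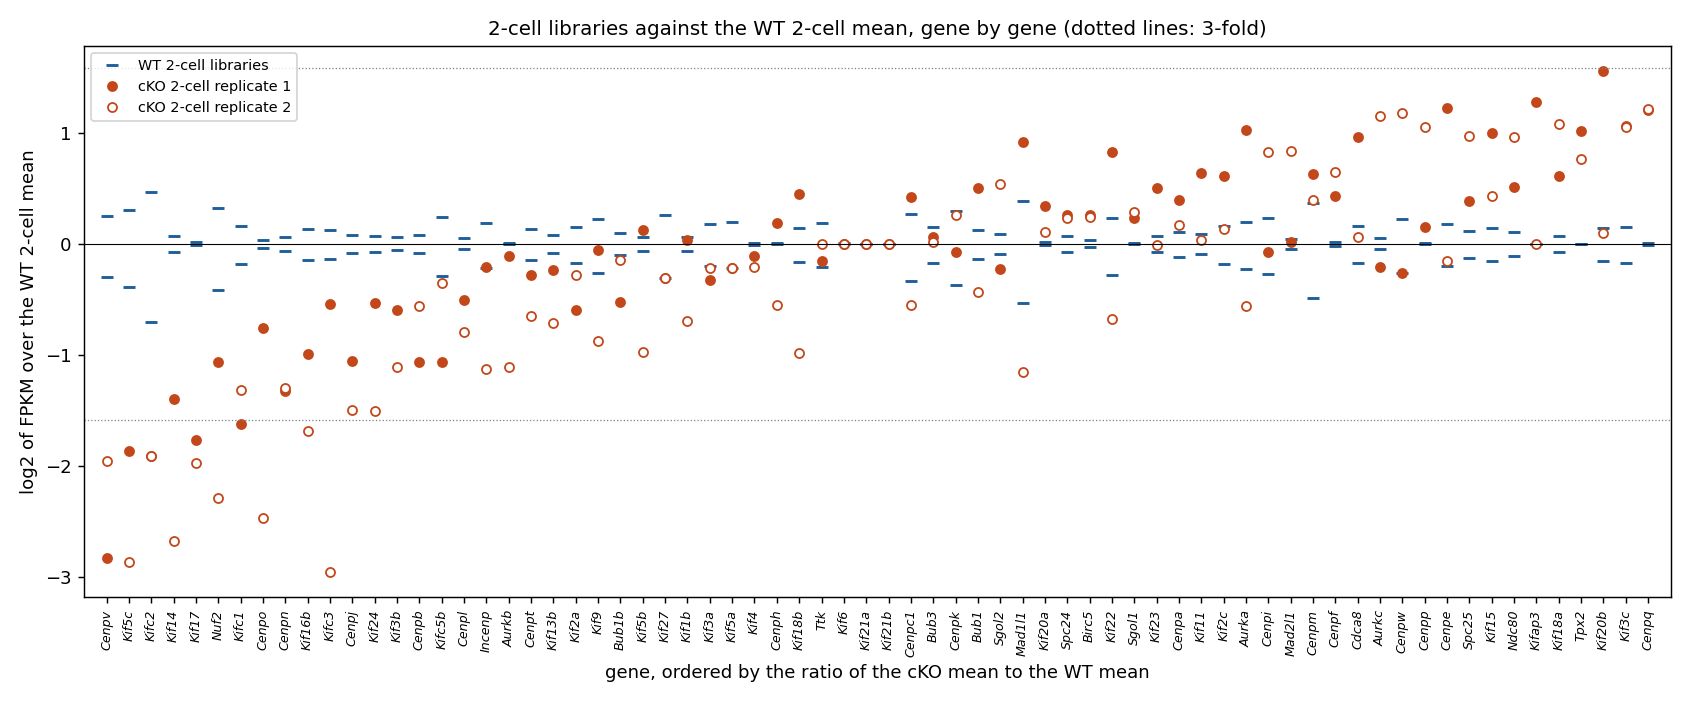
Log2 of FPKM over the WT 2-cell mean for the 70 genes, ordered by the ratio of the cKO mean to the WT mean, with the WT 2-cell libraries as bars, cKO replicate 1 as filled and replicate 2 as open circles, and dotted lines at 3-fold. Cenpv and Kif5c lie at the left, 5.03-fold and 4.86-fold lower, and the circles of 14 genes are over 2-fold apart.

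The difference between the stages in the effect of genotype, which is also the difference between genotypes in the stage change, passed for none of the 70 genes, against 742 of all genes (5.16%). At an unadjusted p under 0.05, it was positive for 3 and negative for 7, of 596 and 2884 of all genes. The lowest adjusted p were those of Cenpn (log2 difference -1.39, SE 0.30, adjusted p = 0.0541), Kif5c (-2.01, SE 0.47, adjusted p = 0.0667) and Cenpb (-0.49, SE 0.12, adjusted p = 0.0769). Equal weights gave 3 calls, Cenpn, Kif17 and Kif5c, where 11.8% of all genes passed. Without WT 2-cell replicate 1 there were 6 (12% of all genes), without WT 2-cell replicate 2 there were 3 (12.1%), and without cKO 2-cell replicate 2 there were 2 (3.94%). Without either WT zygote library, 0 of the 70 genes and 1 of all genes (0.00695%) passed.

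Of 48 other kinetochore, spindle and anaphase genes, those listed here from 51 chosen by their known roles, 15 rose and 6 fell in WT between the stages, where 36.6% and 14.9% of all genes did. Trip13, the ATPase that takes apart the checkpoint complex, went from 2.57 and 3.19 FPKM to 47.3 and 37.0 (log2 fold change 3.47), and Mad2l1bp, its adaptor to MAD2, from 56.3 and 45.1 to 434 and 667 (3.39). Pttg1, which encodes securin, went from 7696 and 7668 to 1121 and 866 (-2.96), and Mlf1ip, the gene of CENP-U, from 24.6 and 22.9 to 5.20 and 4.34 (-2.10). The WT stages did not overlap for any of these 4 genes. In cKO, 9 of the 48 rose and 5 fell, where 20.7% and 18.2% of all genes did.

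Between genotypes, Mis12 was the 1 gene of the 48 that passed at the 2-cell stage (2.08%), where 6.77% of all genes did. In zygotes and in the difference between stages, 0 of the 48 passed, where 0.195% and 5.16% of all genes did. The product of Mis12 belongs to the platform that joins the inner kinetochore to NDC80. Mis12 was at 71.7 and 81.8 FPKM in WT 2-cell embryos and at 20.7 and 31.3 in cKO 2-cell embryos, with a log2 fold change of -1.55 (SE 0.33, adjusted p = 0.0484). This call was lost in 9 of 14 alternatives, without each of the 4 libraries of the 2-cell stage among them (adjusted p up to 0.161 over the alternatives). In zygotes it was at 37.0 and 40.6 in WT and 38.1 and 36.5 in cKO, so the WT 2-cell libraries stood above and the cKO 2-cell libraries below the zygotes.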

How the data were processed

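Smart-seq2 libraries of 10 embryos each (8 libraries, 4 groups of 2) were analysed. ChIP-seq samples were not analysed here. Per the labels, the authors trimmed reads, mapped them to mm9 with TopHat2 2.1.1 and computed FPKM with Cufflinks 2.2.1. The gene annotation is not given in the sources used here. Before deposit, the authors left out genes that were below 1 FPKM in every sample and raised lower FPKM values of the other genes to 1, and each of the 14392 deposited genes was above 1 in at least 1 library. Read counts were not used here, so depth is unknown and no count model was used.

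Values were tested as log2(FPKM + 1) with limma 3.58.1 in R 4.3.3, with no further filter. The 4 groups shared 1 model with 4 residual degrees of freedom. Library weights were estimated by group (WT zygote 2.40, cKO zygote 4.06, WT 2-cell 0.509, cKO 2-cell 0.201), the prior variance followed a trend, and p-values were adjusted by Benjamini-Hochberg over all genes, with a threshold of 0.05. Fold changes on this scale understate those of low genes. The 3-fold rule used the ratio of group means. Replicate libraries were numbered as in the labels. The comparison of cKO zygotes with cKO 2-cell embryos was added after the data were seen. The scripts were tested on simulated data. Figures were drawn with matplotlib 3.10.9 in Python 3.11.15, and promoters were read from RefSeq (GRCm38.p6).

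The genes and lists were chosen with earlier results of these data known. Named genes were Usp16, the 19 genes named singly, the 5 Cenp or Kif genes with the largest change in each direction among those past the threshold without overlap in the WT stage comparison and in the 2-cell genotype comparison, the 5 most abundant, and those past a threshold in zygotes or in the difference between stages. Others were named after their values were seen. Alternatives were other weights, pseudocounts, filters, scalings, priors and replicate blocks, the 4 libraries of a comparison alone, and leaving out each library. In every fit with a library left out, no replicate remains in its group, so other groups give the spread.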

Additional observations from a re-analysis of the deposited data

Results flagged for a closer look

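For 7 of the 70 genes, both cKO libraries lay on one side of both WT libraries in zygotes and on the other side at the 2-cell stage. These were 10% of the 70 genes, and 1003 of all 14392 genes (6.97%) showed the same. The difference between the stages in the effect of genotype was tested with limma and passed for none of them. Cenpn, Kif5c, Nuf2, Bub1b, Cenpt and Kif4, a chromosome-arm motor gene, were higher in cKO zygotes and lower in cKO 2-cell embryos, while Cenpa was lower in cKO zygotes and higher in cKO 2-cell embryos.

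On the log2 scale the difference was -1.39 for Cenpn (SE 0.30, adjusted p = 0.0541), -2.01 for Kif5c (SE 0.47, adjusted p = 0.0667) and -1.77 for Nuf2 (SE 0.50, adjusted p = 0.0984). It was -0.81 for Bub1b (SE 0.56, adjusted p = 0.434), -0.69 for Cenpt (SE 0.38, adjusted p = 0.326), -0.36 for Kif4 (SE 0.41, adjusted p = 0.635) and 0.58 for Cenpa (SE 0.42, adjusted p = 0.461). Kif4 was at 22.3 and 21.1 FPKM in WT zygotes, 27.4 and 22.9 in cKO zygotes, 27.8 and 27.5 in WT 2-cell embryos and 25.6 and 23.9 in cKO 2-cell embryos, so its groups lay close together, and it shares 15.1% of its exon bases with the opposite-strand gene Pdzd11.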

How the results depend on the processing

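Precision is limited by 2 libraries per group, an unknown depth and the spread of the cKO 2-cell libraries, and the causes of the differences below were not tested. No called gene changed direction in the alternatives run, but the direction of the calls gained at the 2-cell stage depended on the scaling. Between WT stages, the 20 risers became 13 to 19 and the 15 fallers 10 to 16 when 1 library was left out, and quantile normalization gave 23 fallers. By 3-fold, 12 higher and 6 lower genes became 19 and 14 at 2-fold (36.5% and 15.6% of all genes), and 11 were lower after median-ratio scaling (11.4%). Between cKO stages, an added comparison, leaving out 1 library gave 6 to 14 risers and 8 to 15 fallers. In zygotes, 0 calls became 0 to 2 when 1 library was left out. At the 2-cell stage, 0 calls became 15 with equal weights (30.7% of all genes), 3 lower with a filter on low values (mean FPKM of 3; 10.5%), 2 higher with median-ratio scaling (4.1%), 2 lower with sum scaling (8.79%), 1 higher with quantile normalization (3.9%), 4 (1 higher, 3 lower) without a trend in the prior (7.55%), and 0 to 5 when 1 library was left out. For the difference between the stages, 0 calls became 3 negative with equal weights (11.8%), 2 positive with median-ratio scaling (3.61%), 2 negative with sum scaling (7.17%), 1 positive with quantile normalization (2.56%), 1 negative without a trend (5.73%), and 0 to 6 when 1 library was left out. By 3-fold at the 2-cell stage, 0 genes higher in cKO became 3 at 2-fold (8.75% of all genes) and 1 after median-ratio scaling (6.9%), and 5 lower became 12 at 2-fold (28.6%), 2 when every library had to pass (6.82%), 3 with a pseudocount of 1 (8.03%), 2 after median-ratio scaling (6.29%), and 5 to 9 when 1 library was left out. The median log2 ratio of 0.15 at the 2-cell stage was 0.61 with median-ratio scaling, -0.08 with sum scaling and -0.15 to 0.18 when 1 library was left out. The Usp16 difference in zygotes stayed at -3.21 with equal weights (adjusted p = 0.191) and with the 4 zygote libraries alone (adjusted p = 0.31).

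The labels do not say that a replicate number marks a shared source, and 2 numbers per group are too few to settle it from the values. The correlation of deviations over 7142 genes was 0.535 between the zygote groups and -0.335 between the 2-cell groups. The replicate block gave 2 calls in zygotes, Cenpq (adjusted p = 0.0481) and Kif21a (adjusted p = 0.0311), where 3.02% of all genes passed, and 0 at the 2-cell stage (3.23%), and paired ratios with the replicate block gave 8 genes past 3-fold lower at the 2-cell stage (14.9% of all genes). A crossed replicate block was added after the data were seen. With it, 3 genes passed in zygotes, Cenpq, Kif21a and Ndc80 (3.04% of all genes), and 1 at the 2-cell stage, Cenpv (3.45%).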
